A study of Mus musculus with 16 samples.

Results

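The enzymes that hydroxylate and cross-link collagen were examined in gonadal white adipose tissue, the fat pad beside the testis, of fed and fasted mice. The group held 10 named genes: the lysyl oxidases Lox, Loxl1, Loxl2 and Loxl3, the catalytic subunits of collagen prolyl 4-hydroxylase P4ha1, P4ha2 and P4ha3, and the lysyl hydroxylases Plod1, Plod2 and Plod3. A member was measured where a probe set of the array carried its symbol and no other, and this held for 8 of the 10, of 22180 genes measured in all. The probe sets of Loxl2 were annotated also to the predicted gene Gm21451 and that of Plod3 also to the microRNA gene Mir702, so both genes were left out. Each of the 8 measured members had 1 probe set.

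The 16 samples came from male C57BL/6 mice of 3 to 4 months, 8 with free access to food and 8 after 16 hours without food, with tissue taken in the morning. The labels describe the animals as pure-bred and name no transgene, and do not say whether each sample is a separate mouse. RNA was hybridised to Affymetrix whole-transcript arrays, giving log2 values normalized by the authors. Markers of adipocytes were bright in every sample. The mean log2 value of 7 such markers lay between 10.70 and 11.02 in fed and between 10.40 and 10.71 in fasted arrays, against array medians of 3.60 to 3.69 over all probe sets. Array correlations over all genes were 0.966 to 0.993. Fed replicate 2 and fasted replicate 7 held high signal of ciliated epithelium, with a mean of 8 markers of 5.78 and 5.35 against 3.13 to 4.09 in the other arrays, and fed replicate 3 had the highest mean of 10 liver transcripts, at 9.37, with fed replicate 2 next at 9.24.

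Collagen chains are modified before and after they leave the cell. In the endoplasmic reticulum, prolyl 4-hydroxylases convert prolines to hydroxyproline, which stabilises the triple helix, and lysyl hydroxylases convert lysines to hydroxylysine, on which sugars and later cross-links are built. These hydroxylases need iron, ascorbate and 2-oxoglutarate. Outside the cell the copper enzymes of the lysyl oxidase family oxidise lysine and hydroxylysine residues of collagen and elastin, and the aldehydes formed join neighbouring chains. In fat tissue these enzymes are known from the matrix that surrounds adipocytes, made by adipocytes, their precursors and fibroblasts.

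The stretches before the starts of P4ha1 and P4ha2 are shown because the changes of these paralogous subunits on fasting differed (below). They come from RefSeq on build GRCm38.p6, plus strand, at chr10:59323046-59323196 and chr11:54100773-54100923, and each is the 151 bases before the earliest annotated start of its gene. Capitals mark ACGTG, or CACGT when read on the other strand. This is a form of the core of the element bound by hypoxia-inducible factors, which are known regulators of prolyl hydroxylase genes. The other form of the core, GCGTG, was not searched for. It occurs unmarked in both stretches.
P4ha1: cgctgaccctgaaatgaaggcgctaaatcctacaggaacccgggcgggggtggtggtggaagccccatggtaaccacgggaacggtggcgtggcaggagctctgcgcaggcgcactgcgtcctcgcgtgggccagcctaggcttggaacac
P4ha2: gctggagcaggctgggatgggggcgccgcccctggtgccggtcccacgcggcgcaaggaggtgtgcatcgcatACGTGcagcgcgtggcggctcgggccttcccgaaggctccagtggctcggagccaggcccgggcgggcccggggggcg
The P4ha2 stretch held 1 match to ACGTG, beginning 78 bases before the start, and the P4ha1 stretch held 0. Because GCGTG was left out, these counts do not show that P4ha1 lacks the core. In the 250 bases before the start that the RefSeq table itself uses, which for P4ha1 run past the earliest annotated start, each gene held 1. Of 27025 genes with an entry, 11.2% held a match in the 151 bases before that RefSeq start, which need not be the earliest annotated start. The half-site TGTTCT or AGAACA of the glucocorticoid receptor was found 0 times in both stretches, against 9.67% of genes before the RefSeq start. These shares are therefore no exact background for the stretches shown. A match is a description of the letters and not of binding. Of the 8 measured members, 4 had an entry that could be used.

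On fasting, Lox and Plod2 rose, P4ha2 fell, and the other 5 measured members were not called. Calls rest on limma, a linear model that shares its estimate of the spread between genes, with an adjusted p (Benjamini-Hochberg, over all 22180 genes) below 0.05. Higher calls made up 8.49% and lower calls 10.7% of all genes, 19.2% together, so 3 called of 8 members is not set apart as a count. The median log2 fold change of the 8 members was 0.025, against -0.0042 over all genes. The largest change belonged to Lox, and its groups did not overlap, which was true of 6.48% of all genes.

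**Figure D1:**
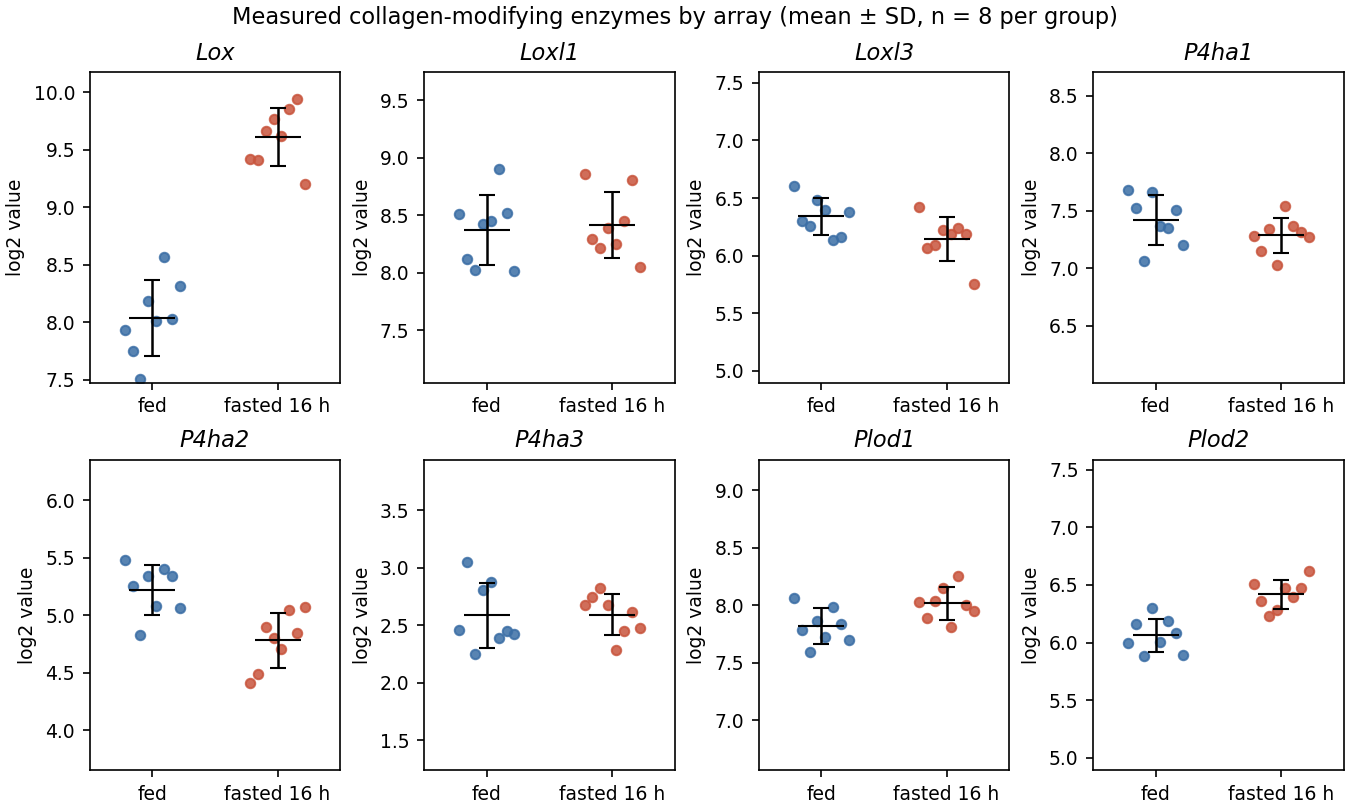
Deposited log2 values of the 8 measured members in the 8 fed (blue) and 8 fasted (red) arrays, 1 point per array, with the mean and SD in black; every panel spans the same range of log2 units. The fasted values of Lox, from 9.20 to 9.94, all lie above the fed values, from 7.51 to 8.57, while in the other 7 panels the groups overlap.

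Among the lysyl oxidases, Lox, the founding member that cross-links fibrillar collagen and elastin, was the measured member that was called. Its fed arrays ran from 7.51 through a median of 8.02 to 8.57 on the log2 scale, and its fasted arrays from 9.20 through 9.64 to 9.94. Every fasted array was above every fed array, with fasted replicate 8 the lowest of its group and fed replicate 6 the highest of its own. The log2 fold change was 1.57 (SE 0.14, 95% interval 1.29 to 1.86), or 2.97-fold, with a limma adjusted p of 1.36e-07 (n = 8 per group). An exact two-sided permutation test of the means gave p = 0.000155, the smallest that 8 against 8 arrays allow. In bulk tissue, fewer or more cells of a type and less or more RNA per cell cannot be told apart.

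Loxl1, which is known for its part in elastic fibres, ran from 8.01 through a median of 8.44 to 8.90 in fed arrays and from 8.05 through 8.34 to 8.86 in fasted arrays. The ranges lay almost on top of each other. Its log2 fold change was 0.045 (SE 0.14, 95% interval -0.24 to 0.33, limma adjusted p = 0.888). Loxl3, a lysyl oxidase with scavenger receptor domains, ran from 6.13 through 6.34 to 6.60 in fed and from 5.76 through 6.19 to 6.42 in fasted arrays. Fasted replicate 8 lay below the rest of its group, and the remaining fasted arrays were within the fed range or just under it. The log2 fold change of Loxl3 was -0.19 (SE 0.089), with limma adjusted p = 0.158 over all genes and an exact permutation p of 0.0401 for this gene by itself. Loxl4, the family member outside the named genes, had a log2 fold change of -0.13 (SE 0.087, limma adjusted p = 0.372).

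The change of Lox differed from those of its relatives in the same arrays. For every pair of measured members within a family, 7 pairs in all and added after the values were seen, the difference of the log2 values in each array was compared between the groups by an exact two-sided permutation test, with Benjamini-Hochberg adjustment over the 7 pairs. Lox rose by 1.53 more than Loxl1 on the log2 scale (SE 0.14, exact p = 0.000155, adjusted 0.000544) and by 1.76 more than Loxl3 (SE 0.16, with the same exact p and adjusted value). In both pairs the fed and fasted differences did not overlap. The changes of Loxl1 and Loxl3 were apart by 0.24 (SE 0.15, exact permutation p = 0.125, adjusted 0.145).

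Among the prolyl 4-hydroxylase subunits, P4ha2 fell. P4ha2, the catalytic subunit of the type II enzyme, ran from 4.82 through a median of 5.29 to 5.48 in fed arrays and from 4.41 through 4.82 to 5.07 in fasted arrays. The groups overlapped, and fed replicate 3 was the low fed array, at the fasted median. The other 7 fed arrays began at 5.07, level with fasted replicate 8. The log2 fold change was -0.44 (SE 0.11, 95% interval -0.67 to -0.21), a 1.36-fold fall with a limma adjusted p of 0.00714 and an exact permutation p of 0.00264 (n = 8 per group).

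P4ha1, the subunit of the type I enzyme that is the main form in most tissues, ran from 7.06 through 7.44 to 7.68 in fed arrays and from 7.03 through 7.30 to 7.54 in fasted arrays. Its log2 fold change was -0.13 (SE 0.094, 95% interval -0.33 to 0.065, limma adjusted p = 0.409). P4ha2 fell by 0.31 more than P4ha1 on the log2 scale (SE 0.10, exact permutation p = 0.00715, adjusted over the 7 pairs 0.0167), so within the pair the changes were unequal. P4ha3, the third subunit, was below the array median in all 16 arrays and did not reach a linear value of 20 in any, so its values of 2.25 to 3.05 in fed and 2.28 to 2.83 in fasted arrays lie near the background of the array and a change could have gone unseen. For the same reason the differences of P4ha1 and P4ha2 from P4ha3, which are among the 7 pairs, are not read. Its log2 fold change was 0.0044 (SE 0.11, limma adjusted p = 0.988).

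Among the lysyl hydroxylases both measured members had higher fasted means. Plod2, which hydroxylates the telopeptides of fibrillar collagen, ran from 5.88 through a median of 6.04 to 6.30 in fed arrays and from 6.23 through 6.43 to 6.62 in fasted arrays. Fasted replicates 3 and 4 lay below the highest fed array, replicate 4, and the other 6 fasted arrays lay above all fed arrays. Plod2 rose by 0.36 on the log2 scale (SE 0.075, 95% interval 0.20 to 0.52), or 1.28-fold, with a limma adjusted p of 0.00175 and an exact permutation p of 0.000466 (n = 8 per group).

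Plod1, the hydroxylase of lysines within the helix, ran from 7.59 through 7.81 to 8.06 in fed and from 7.81 through 8.01 to 8.25 in fasted arrays. The upper part of the fed range held most of the fasted arrays. Its log2 fold change of 0.20 (SE 0.079, 95% interval 0.032 to 0.36) had a limma adjusted p of 0.0938 over all genes and an exact permutation p of 0.0196 for this gene by itself. With dim genes removed before the adjustment it was called (limma adjusted p = 0.0434 with the linear filter), as it was without fed replicate 1 (0.0461). The changes of Plod1 and Plod2 were apart by -0.16 (SE 0.094, exact permutation p = 0.113, adjusted over the 7 pairs 0.145), so a difference between them was not shown.

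**Figure D2:**
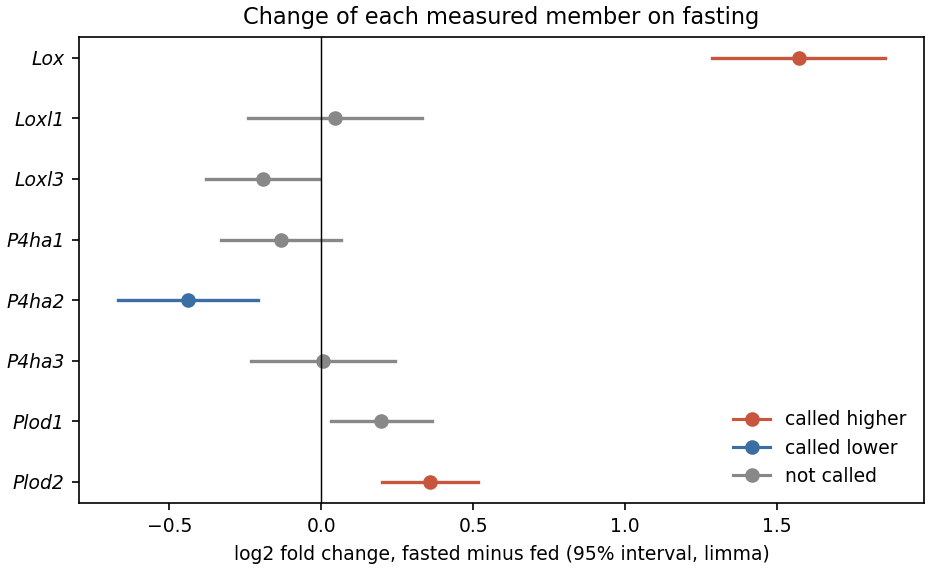
Log2 fold change (fasted minus fed) of each measured member on the horizontal axis, with the 95% interval of limma as a line; red marks genes called higher, blue called lower and grey not called. Lox stands at 1.57, Plod2 at 0.36 and P4ha2 at -0.44, and the other 5 lie between -0.19 and 0.20.

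Lox was then set against the other measured members array by array. Because the fed and fasted values of Lox form separate clusters, no correlation was pooled over them. In the fed arrays Pearson's r with Lox was 0.61 for Loxl1, 0.50 for P4ha2, 0.48 for Plod1 and 0.39 for Plod2, and between -0.15 and 0.14 for Loxl3, P4ha1 and P4ha3. In the fasted arrays r was 0.51 for Loxl3, 0.50 for Plod1, 0.42 for Loxl1, 0.26 for P4ha2, 0.085 for P4ha1, -0.015 for P4ha3 and -0.48 for Plod2. Over these 14 relations of 8 arrays each the exact permutation p ran from 0.105 to 0.971, and from 0.681 to 0.998 when adjusted over all genes set against Lox in that group. Spearman's rho ran from -0.43 for Plod2 in the fasted arrays to 0.57 for Plod1 there, with exact permutation p from 0.151 to 0.840. No relation passed, and 0 of 22179 genes (0%) passed in either group. With 8 arrays the smallest exact permutation p possible was 2.48e-05. After adjustment over 22179 genes, a gene could pass only if many genes had a p at or near that smallest value. The lowest adjusted p was 0.367 in the fed and 0.550 in the fasted arrays. The counts of 0 therefore cannot show that no gene covaried. At an unadjusted exact p under 0.05, 8.01% of genes passed in the fed and 5.93% in the fasted arrays.

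The fed values rested largely on a pair of arrays. Without fed replicates 3 and 6, which had the lowest and the highest Lox of the group, r was -0.19 for Loxl1, 0.086 for Loxl3, -0.46 for P4ha1, -0.36 for P4ha2, -0.52 for P4ha3, -0.31 for Plod1 and -0.22 for Plod2 over the remaining 6 arrays, so of the fed values only that of P4ha3 kept its sign. Without fasted replicates 7 and 8, the ends of the fasted range, r was 0.95 for P4ha2, 0.69 for Plod1, 0.055 for P4ha1, -0.074 for Loxl3, -0.32 for Loxl1, -0.32 for P4ha3 and -0.41 for Plod2. Of the fasted values those of Loxl1 and Loxl3 changed sign and the other 5 kept it.

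**Figure D3:**
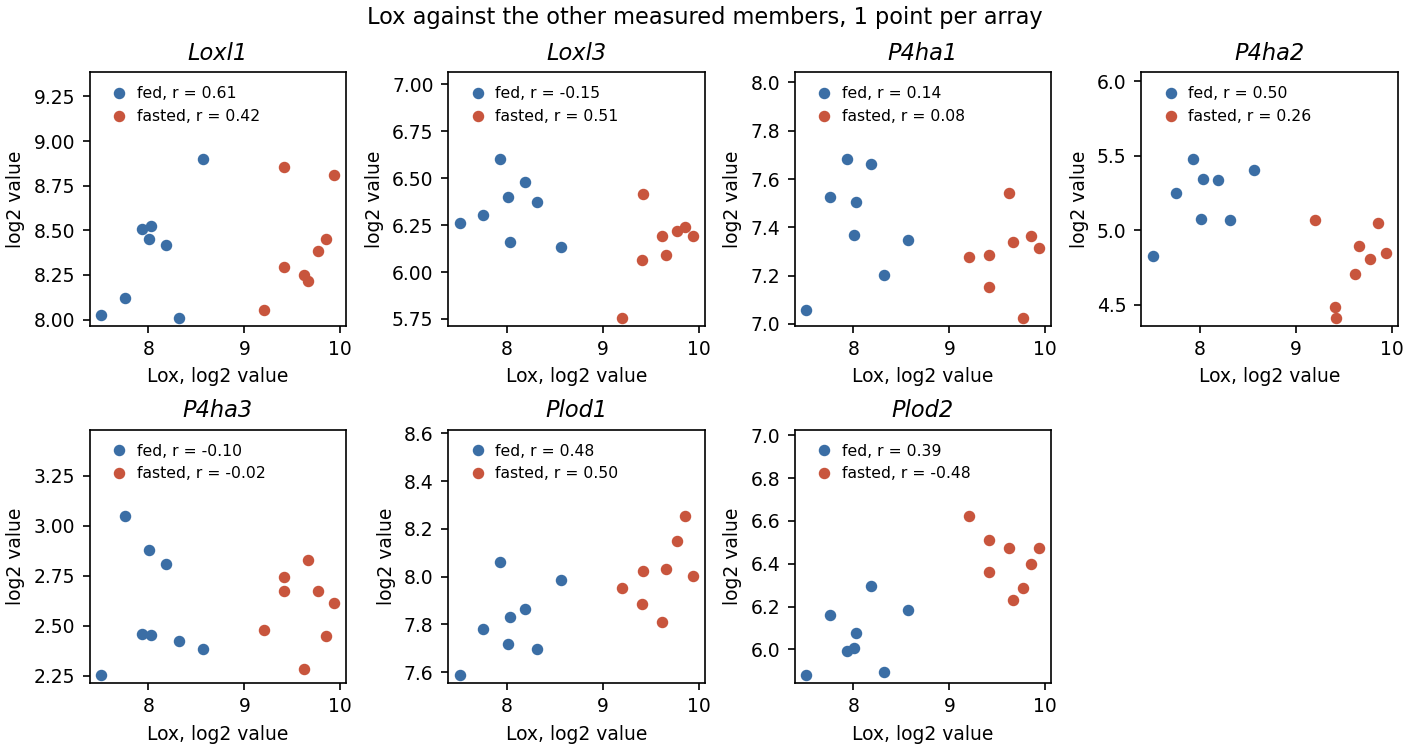
Log2 value of Lox on the horizontal axis of each panel against the log2 value of another member on the vertical axis, 1 point per array, fed in blue and fasted in red, with Pearson's r within each group. The groups are set apart along the Lox axis in every panel, and within a group r runs from -0.48 to 0.61.

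A limma model with group and Lox as terms used all 16 arrays at once. The slope on Lox was 0.53 log2 units of Loxl1 per log2 unit of Lox (SE 0.22, unadjusted p = 0.0289, adjusted p = 0.532), 0.30 for P4ha2 (SE 0.19, adjusted p = 0.724) and 0.25 for Plod1 (SE 0.14, adjusted p = 0.652). For Loxl3, P4ha1, Plod2 and P4ha3 the slopes were 0.095, 0.079, 0.019 and -0.061, with limma adjusted p from 0.930 to 0.984. So 0 of 7 members were called, as were 0 of 22179 genes (0%), while 8.49% of genes had an unadjusted p under 0.05. In simulated data the model called 40.3% of slopes of 1 SD of the gene per SD of Lox, and 98.5% of slopes of 2. The SD of the gene was that within groups before the slope was added, so a slope of 1 is already a strong relation. Many slopes were set at once among genes simulated as independent, which eases the adjustment, so these shares may be too high for the real arrays. A moderate covariation, and even a strong one, could therefore have gone unseen. A difference of slope between fed and fasted arrays was called for 0 of 7 members and 0 of 22179 genes (0%) by limma, with an unadjusted p under 0.05 for 5.74% of genes. For Plod2, whose r was positive in the fed and negative in the fasted arrays, this difference of slopes was -0.42 (SE 0.28, limma adjusted p = 0.851).

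The 6 genes with the highest Pearson r with Lox, over the deviations of the 16 arrays from their group means, were Map1s, a microtubule-associated protein, at 0.88, Itgb1, the beta chain that the collagen-binding integrins share, at 0.88, Col4a1, a chain of basement membrane collagen, at 0.87, the small Maf transcription factor Mafk at 0.87, the amyloid precursor protein gene App at 0.86 and Mtch1, of the mitochondrial outer membrane, at 0.86. Loxl1 was rank 1011 of 22179 on this measure, at 0.53, Plod1 was rank 1330 and Plod2 rank 9946. The limma slopes of the 6 had adjusted p from 0.130 to 0.335. Of the 6, Mafk and Col4a1 were also called higher on fasting, by 0.88 (SE 0.13) and 0.32 (SE 0.096) on the log2 scale.

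Within a group the members shared some arrays at their extremes. Fed replicate 3 held the lowest fed value of 6 of the 8 members, namely Lox, P4ha1, P4ha2, P4ha3, Plod1 and Plod2, and 15.4% of all genes had their lowest fed value there. The median deviation of the members from the fed mean was -0.34 in that array, against -0.0073 over all genes. This array also had the highest liver mean, as given above, and the part of that signal in the low values was not tested. Fasted replicate 8 held the lowest fasted value of the 3 lysyl oxidases, where 12.5% of all genes were lowest. Fasted replicate 1 held the highest fasted value of Loxl1 and Loxl3 and the lowest of P4ha2, and had the highest means of 4 marker lists over all 16 arrays, those of fibroblasts at 10.05, macrophages at 8.90, mesothelium at 7.94 and skeletal muscle at 4.18. Their part in these values was not tested.

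**Figure D4:**
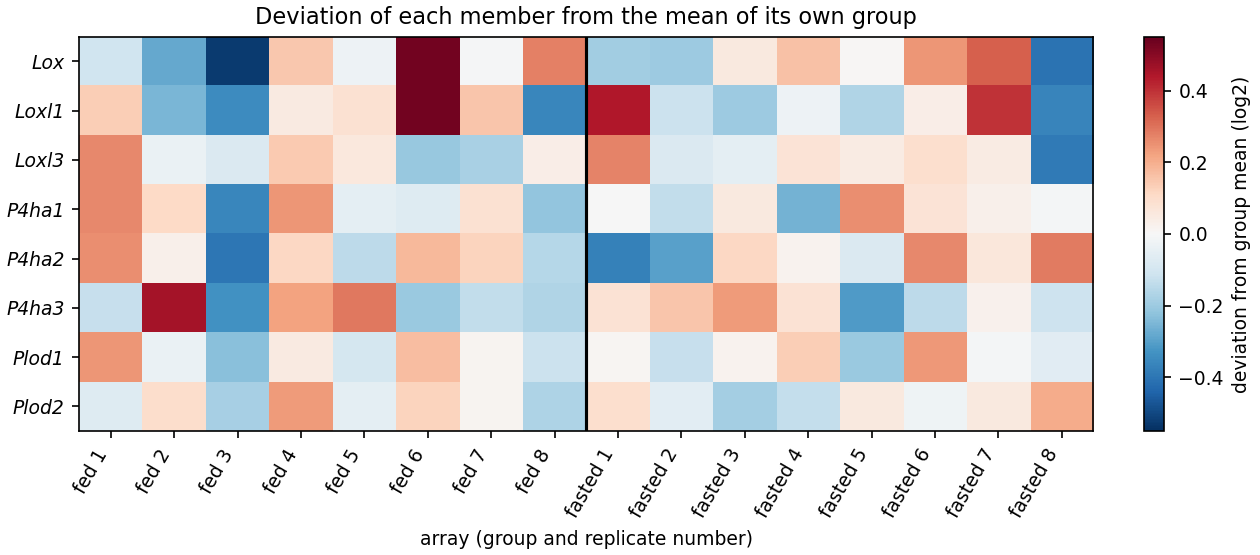
Deviation of each measured member (rows) from the mean of its own group in each array (columns), in log2 units, red above and blue below the group mean; the black line parts fed from fasted arrays. Fed replicate 3 is below the fed mean for all 8 members, with a median deviation of -0.34.

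The values of cell type markers are set beside these changes, with 8.49% of all genes called higher and 10.7% called lower. Of 9 markers of fibroblasts and adipocyte precursors 2 fell, Cd34 by 0.52 and Lum by 0.68 on the log2 scale, and none rose. Their list mean lay between 9.63 and 9.83 in fed and between 9.54 and 10.05 in fasted arrays. Of 7 adipocyte markers 2 fell, Plin1 by 0.84 and Lep by 1.93, and Cidec rose by 0.25. Adipoq, Lipe, Fabp4 and Pparg lay between -0.12 and 0.063 and were not called. The adipocyte list means were almost apart, from 10.70 to 11.02 in fed and from 10.40 to 10.71 in fasted arrays, with group means of 10.91 and 10.54, and met only at fed replicate 2 and fasted replicate 4. The lower fasted list mean rests on Lep and Plin1 and is not a fall of the adipocyte markers as a whole. The markers named here were picked after their values were seen. Of 8 macrophage markers 3 rose and 1 fell, with list means of 8.23 to 8.46 in fed and 8.29 to 8.90 in fasted arrays. Of 8 markers of smooth muscle and pericytes 1 rose and 2 fell, with list means of 7.13 to 8.05 in fed and 6.86 to 7.77 in fasted arrays, and of 8 endothelial markers 2 rose, with 8.33 to 8.90 and 8.52 to 8.88. Of 8 mesothelial markers 1 fell, of 10 liver transcripts 2 rose, of 8 markers of skeletal muscle 1 rose, and of 8 of ciliated epithelium 0 were called. The 2 liver transcripts were Apoc3 and Cyp2e1. Cyp2e1 was bright in every array, at 11.61 to 12.37 in fed and 12.33 to 12.70 in fasted, and did not vary as widely as Alb did (SD 1.32 and 0.99). The list means lay at 7.34 to 7.88 and 6.59 to 7.94 for mesothelium, 6.27 to 9.37 and 6.62 to 8.64 for liver, 3.56 to 4.00 and 3.82 to 4.18 for skeletal muscle and 3.13 to 5.78 and 3.17 to 5.35 for ciliated epithelium, fed first. The list means of the other 8 types overlapped more widely than those of adipocytes. Their part in the changes of the members was not tested. Without fed replicates 2 and 3 and fasted replicate 7, an alternative chosen after seeing the data, the same number of members was called, with Lox higher by 1.39 (SE 0.12), Plod2 by 0.34 (SE 0.086) and P4ha2 at -0.51 (SE 0.12).

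The partners of the hydroxylases in the endoplasmic reticulum fell or were not called. Of 18 measured genes of collagen folding and modification 7 fell and none rose, with a median log2 fold change of -0.17, where 10.7% of all genes fell. As given above, calls were more frequent among brighter genes, so that share is a low background for this list. Serpinh1, the collagen chaperone HSP47, fell by 1.00 (SE 0.12, limma adjusted p = 4.41e-06), from 7.95 ± 0.26 to 6.95 ± 0.23 (SD, n = 8 per group). Fkbp14, a prolyl isomerase, fell by 0.75 (SE 0.088), Crtap, of the complex that hydroxylates a few prolines at another position, by 0.59 (SE 0.074) and Fkbp9 by 0.34 (SE 0.11). The other 3 that fell, named after their values were seen, were Sec23a, of the coat that carries procollagen out of the endoplasmic reticulum, by 0.27, and P3h1 and Ppib, which form that complex with Crtap, by 0.34 and 0.23. P4hb, the beta subunit that all collagen prolyl 4-hydroxylases share, likewise named after its value was seen, had a log2 fold change of -0.17 (SE 0.065, limma adjusted p = 0.0822).

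The substrates of the lysyl oxidases were divided. Of 12 measured genes 4 fell and 2 rose, with a median of -0.15, where 10.7% of all genes fell and 8.49% rose. The minor fibrillar chains Col5a1, Col5a3 and Col5a2 fell by 0.85 (SE 0.12), 0.83 (SE 0.16) and 0.35 (SE 0.10), and Col3a1, a major chain of loose tissue, fell by 0.73 (SE 0.11, limma adjusted p = 9.94e-05). The chains of type I collagen were lower on average without passing the test, Col1a1 at -0.33 (SE 0.15, limma adjusted p = 0.135) and Col1a2 at -0.23 (SE 0.12, adjusted p = 0.242). Elastin (Eln) rose by 0.59 (SE 0.17, limma adjusted p = 0.0218), from 6.87 ± 0.43 to 7.46 ± 0.33 (SD, n = 8 per group), and Col4a1 was the other gene that rose. Col4a2 was at 0.23 (SE 0.13, limma adjusted p = 0.266), and Col2a1, Col11a1 and Col11a2 were dim, at group means of 2.79 to 3.27, and were not called.

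Among 14 genes that process procollagen or bring lysyl oxidase into action 3 rose and 2 fell, with a median of -0.016. Of all genes 8.49% rose and 10.7% fell. Fbln5, a fibulin that binds lysyl oxidases and elastin, rose by 0.97 (SE 0.086, limma adjusted p = 2.03e-07), with no overlap between the groups. Thbs1 and Postn, matricellular proteins that bind the protease that activates lysyl oxidase or its precursor, rose by 1.03 (SE 0.19) and 0.70 (SE 0.10). Pcolce, which enhances removal of the procollagen C-propeptide, fell by 0.81 (SE 0.12, limma adjusted p = 7.06e-05), and Tll1, a protease of the same family as Bmp1, named after its value was seen, fell by 0.44 (SE 0.13). Bmp1 itself, which cleaves the lysyl oxidase precursor and is named here for that role after its value was seen, had a log2 fold change of -0.10 (SE 0.11, limma adjusted p = 0.642), and fibronectin (Fn1), named in the same way, -0.038 (SE 0.11, adjusted p = 0.876).

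**Figure D5:**
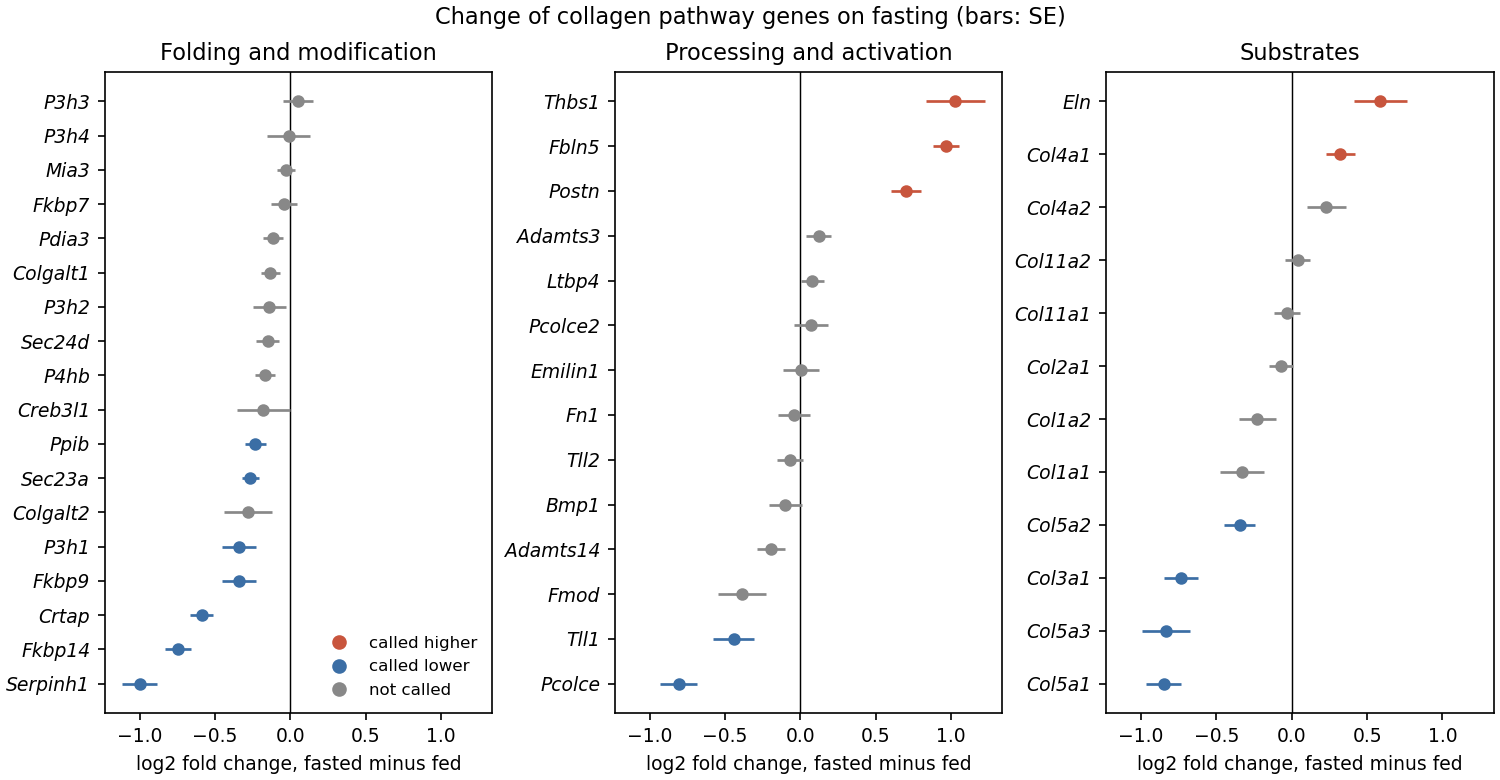
Log2 fold change (fasted minus fed) of the measured genes of 3 lists of the collagen pathway on the horizontal axis, with the SE as a bar; red marks genes called higher, blue called lower and grey not called. In the folding list 7 of 18 genes are lower and none higher, and in the substrates 4 are lower and Eln and Col4a1 higher.

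Lists of genes under factors that are known to act on members of the group moved in different ways. Of 18 measured targets of hypoxia-inducible factors, which are known to drive P4ha1, P4ha2, Plod2 and Lox in hypoxic cells, 8 rose and 5 fell, with a median of -0.0047. The largest changes were those of Ddit4, at 3.08, Hilpda, at 1.17 (SE 0.23), Adm, at 1.14 (SE 0.13), and Bhlhe40, which fell by 0.95 (SE 0.19). Of 11 targets and parts of transforming growth factor beta signalling, a known inducer of Lox, 4 rose and 3 fell, with a median of 0.39. Pmepa1 rose by 1.07 (SE 0.16), Acta2 by 0.80 (SE 0.18) and Ccn2 by 0.68 (SE 0.19), and Ltbp2 fell by 0.74 (SE 0.15). Acta2 is also counted among the 8 markers of smooth muscle and pericytes, of which it was the 1 that rose while 2 fell. All 12 glucocorticoid receptor targets rose, with a median of 0.91, among them Ddit4, Sgk1 at 2.26, Cebpd at 1.62 and Per1 at 1.502. The shares over all genes, for each of these lists, were 8.49% higher and 10.7% lower. These lists were chosen with earlier results of these arrays known and are no independent evidence of their direction.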

How the data were processed

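The deposited table held log2 values of 41345 probe sets in 16 arrays; RMA, which corrects background, normalizes between arrays and summarises probes, is named in the submitters' processing notes, and its version is not given in the sources used here. Because the authors set the arrays to a shared distribution, changes are relative to the other transcripts, and fold changes of dim genes are compressed. No batch is given in the sources used here. The number of arrays limits the precision, and p-values measure the spread between samples that the labels do not tie to separate mice.

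Of the probe sets, 23521 carried 1 symbol, 1814 several and 16010 were not listed. Probe sets with 1 symbol were used, the one with the highest mean for the 1082 genes with several, leaving 22180 genes. The fed and fasted log2 values, as deposited, were fitted gene by gene in R 4.3.3 (lmFit and eBayes of limma 3.58.1), and a Benjamini-Hochberg adjusted p below 0.05, over all genes, made a call. Covariation with Lox was fitted with limma and tested within groups by exact permutation (Python 3.11.15, numpy 2.4.6). Scripts were tested on simulated data. The replicate numbers did not pair the arrays (correlations of -0.22 to 0.22 between same-numbered arrays).

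Members and lists were chosen with earlier results of these data known. Named genes were all measured members, up to 4 called genes of each list by size (or the gene with the lowest p), the substrates, and the 6 genes most like Lox; others are marked where named. Alternatives were filters on dim genes, array medians subtracted, cyclic loess, quantile normalization, trend and robust eBayes, array weights, the replicate block, the lowest probe set, an exact rank sum test, ranks for the correlations, and each array left out. Figures were drawn with matplotlib 3.10.9.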

Additional observations from a re-analysis of the deposited data

How the results depend on the processing

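The calls of Lox, Plod2 and P4ha2 held under every alternative run, with log2 fold changes of 1.39 to 1.65, 0.33 to 0.40 and -0.51 to -0.38. Without 1 array at a time, 3 or 4 members were called, the fourth being Plod1 without fed replicate 1 (0.23), and Lox lay between 1.496 and 1.65. Plod1, at 0.20, was also called with either filter on dim genes, where fewer genes were tested. The replicate block changed no call of a member (Lox 1.57, SE 0.12, limma adjusted p = 1.02e-05) and called 3829 genes against 4251; the numbers do not pair the arrays, and in 2 of 8 pairs an array was most like its own number. Subtracting array medians moved the share of higher calls over all genes from 44.3% to 54.7%. Members near 0 changed sign without passing a test. Loxl1 was at -0.033 with array weights, at -0.11 without the 3 arrays that stood apart (fed replicates 2 and 3 and fasted replicate 7), and between -0.018 and 0.12 without 1 array at a time. P4ha3 was at -0.0050 with cyclic loess, -0.00016 with quantile normalization and between -0.043 and 0.070 without 1 array. Slopes on Lox that changed sign were those of P4ha2 (-0.023), P4ha3 (0.26) and Plod2 (-0.23) with the replicate block, P4ha3 (0.00084) and Plod2 (-0.027) with cyclic loess, P4ha3 (0.017) and Plod2 (-0.019) with quantile normalization, and P4ha1 (-0.19) and Plod2 (-0.13) without the 3 arrays. Without 1 array the slopes ran from -0.068 to 0.27 for Loxl3, -0.14 to 0.16 for P4ha1, -0.32 to 0.069 for P4ha3 and -0.099 to 0.12 for Plod2. The cause was not tested. In no alternative did a member covary with Lox, ranks included, where the limit of 8 arrays given above also holds. Over all genes, Gbp11 (slope -1.83), Mafk (0.85) and Tcf15 (0.99) did with either filter on dim genes. Gbp11 and Tcf15 did with trend and robust settings, Gbp11 without fed replicate 1 and Ccna2 (1.14) without fed replicate 2. Gbp11 was thus lower where Lox was higher, and the other 3 genes were higher. These genes were named after their values were seen. Low signal limits P4ha3, which the filters removed.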

Other observations

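Genes that supply or share the cofactors of these enzymes are given beside the 19.2% of all genes that were called. That share is higher among brighter genes, as given above. Of 11 measured genes of ascorbate, copper and iron supply 2 rose and 1 fell, with a median log2 fold change of -0.075. Tfrc, the transferrin receptor through which cells take up iron, fell by 0.64 (SE 0.079, limma adjusted p = 9.30e-06). Gsto1, which can reduce dehydroascorbate, rose by 0.57 (SE 0.077, limma adjusted p = 2.78e-05), and Pcbp2, an iron chaperone and RNA-binding protein, by 0.25 (SE 0.055).

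Of 18 other enzymes that use iron and 2-oxoglutarate 2 rose and 2 fell, with a median of -0.048. Phyh, which starts the breakdown of phytanic acid in peroxisomes, rose by 0.56 (SE 0.080) and the histone demethylase Kdm5a by 0.32 (SE 0.066). Kdm6b, another histone demethylase, fell by 0.40 (SE 0.089) and Tmlhe, of carnitine synthesis, by 0.25 (SE 0.071).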
